A study of Mus musculus with 4 samples.

Results

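NFAT proteins are transcription factors that carry calcium signals from the T-cell receptor to cytokine genes. When calcium rises, calmodulin activates the phosphatase calcineurin, a dimer of 1 catalytic subunit (Ppp3ca, Ppp3cb or Ppp3cc) and 1 calcium-binding regulatory subunit (Ppp3r1 in most tissues). Calcineurin removes phosphates from the cytoplasmic NFATc proteins, which then enter the nucleus. The drugs ciclosporin and tacrolimus block this step in T cells. Rcan1 binds and inhibits calcineurin and is itself an NFAT target, which closes a feedback loop. Nfat5 is the distant relative in the family. It answers osmotic stress and does not depend on calcineurin.

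The expression of 10 genes of this pathway was examined in mouse T-helper 17 (Th17) cells, the CD4 T cells that secrete interleukin 17. The genes were taken by name, the 5 NFAT factors, 3 catalytic and 1 regulatory calcineurin subunits and Rcan1, and all 10 were found among the 50600 genes counted. RNA sequencing had been done on 4 libraries of 1 group, primary cells of strain C57BL/6NJ, numbered as biological replicates 1 to 4. There was no second group. No treatment was recorded, nor were sex, age and stage, so how the cells were cultured or stimulated is not known here. "Sorted" and 72 hr stand in the names of the libraries. Each library has its own biosample under 1 shared donor label, and nothing states whether the cells came from separate animals or cultures. Each p-value speaks of the spread among these 4 libraries alone.

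Totals were 34542693, 23673174, 9382661 and 28629187 counts in replicates 1 to 4. Replicates 1 and 2 had 177 and 193 TPM of Xist against 2.15 and 0.598 TPM in replicates 3 and 4, while Ddx3y from the Y chromosome had 0.165 and 0.133 against 59.7 and 55.2 TPM. The shared donor label therefore covers libraries that 1 animal would not give, while within replicates 1 and 2, or 3 and 4, the spread may be technical. Over all genes replicate 4 stood farthest from the others, with a mean chi-square per gene of 13.7 to 18.5 in its 3 pairs and 3.32 to 7.28 in the other 3. That measure also grows with depth, and replicate 3 was the shallowest library. TPM is transcript abundance per base of exon, scaled to a fixed total per library. All 7 T-cell and Th17 genes looked up were above 1 TPM in every library, Il17f (11651 ± 878 TPM, SD, n = 4) and Cd4 (564 ± 30.2 TPM) among them. Most markers of other cells were near 0, as Ms4a1 (0 counts), Cd8a (4 counts), Ncr1, Cpa3 and Cdh5 (0 counts each). The exceptions, at 1 TPM or more in all 4 libraries, were Acp5 (40.7 ± 13.4 TPM), Pecam1 (8.49 ± 0.793 TPM), Cd68 (6.08 ± 1.66 TPM) and Klrd1 (3.60 ± 0.989 TPM), 1 on each of 4 of the 5 lists. Summed over the list, B cell markers took 0.241 to 0.300 TPM and macrophage and dendritic markers 4.68 to 8.42 TPM, most of it Cd68. In bulk RNA, fewer cells that express a gene and less RNA per cell cannot be told apart.

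Of the 10 genes, 9 reached 1 TPM in all 4 libraries, a level passed by 47.6% of the 21764 protein-coding genes. Together they held 0.131% to 0.134% of all counts. The regulatory subunit Ppp3r1 was the most abundant and Nfatc4 the least. The median over the 10 genes was 54.05 ± 2.16 TPM (SD of the 4 library medians), beside 31.9 ± 0.374 TPM over the protein-coding genes that did so.

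**Figure D1:**
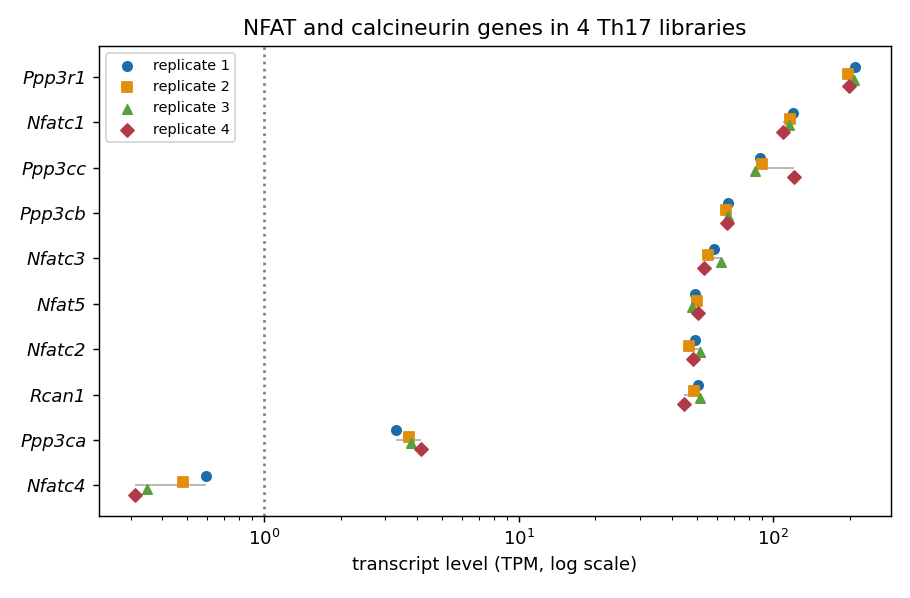
Transcript level of the 10 genes (TPM, log axis) in each of the 4 libraries, 1 marker per replicate, with a grey line from the lowest to the highest library and a dotted line at 1 TPM. Ppp3r1 leads at 203 TPM in the mean, Ppp3ca (3.74 TPM) lies far below Ppp3cb and Ppp3cc, Nfatc4 lies below 1 TPM, and replicate 4 stands apart for Ppp3cc.

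Among the calcium-regulated factors, Nfatc1 was the highest. Nfatc1 (NFAT2), which amplifies its own transcription in activated lymphocytes, had 119, 117, 115 and 109 TPM in replicates 1 to 4. Its mean of 115 ± 4.17 TPM (SD, n = 4) lay above the mean of 92.1% of protein-coding genes. Replicate 4 was the lowest, and the 4 values stayed close together.

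Nfatc3 (NFAT4), which is prominent in thymocytes, had 58.7, 55.5, 62.0 and 53.3 TPM in replicates 1 to 4. Nfatc2 (NFAT1), the factor that resting T cells keep ready in the cytoplasm, had 49.2, 46.6, 51.5 and 48.5 TPM. The lowest Nfatc3 library was above the highest Nfatc2 library, and Nfatc3 was 1.17 ± 0.0488 times Nfatc2 within libraries. Nfatc3 (ENSMUSG00000031902.10) lies on the plus strand of mouse chromosome 8 from 106058840 to 106130537, and Nfatc2 (ENSMUSG00000027544.16) on the minus strand of chromosome 2 from 168476410 to 168601657 (mm10).

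Nfatc4 (NFAT3), known mostly from muscle and nerve, was barely detected. It had 25, 14, 4 and 11 counts in replicates 1 to 4, which is 0.593, 0.481, 0.349 and 0.312 TPM. The exact Poisson intervals (95%, counting error only) were 0.384 to 0.875 TPM in replicate 1 and 0.0951 to 0.894 TPM in the shallow replicate 3. The intervals of the 4 libraries overlapped, and overlap alone does not test for a difference between them. The gene (ENSMUSG00000023411.11) spans chromosome 14 from 55824795 to 55833943, plus strand.

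Within libraries, Nfatc1 took 51.9 ± 1.29% of the summed TPM of the 4 NFATc genes, Nfatc3 25.9 ± 0.887%, Nfatc2 22.1 ± 0.786% and Nfatc4 0.195 ± 0.0545% (SD, n = 4). Nfatc1 stood at 2.35 ± 0.134 times Nfatc2 and 2.01 ± 0.111 times Nfatc3. The share of Nfatc1 ran from 50.2% in replicate 3 to 53.2% in replicate 2, so the make-up of the family was close to constant over the libraries. It was 48.6% when the longest protein-coding transcript replaced the full exonic length of each gene.

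**Figure D2:**
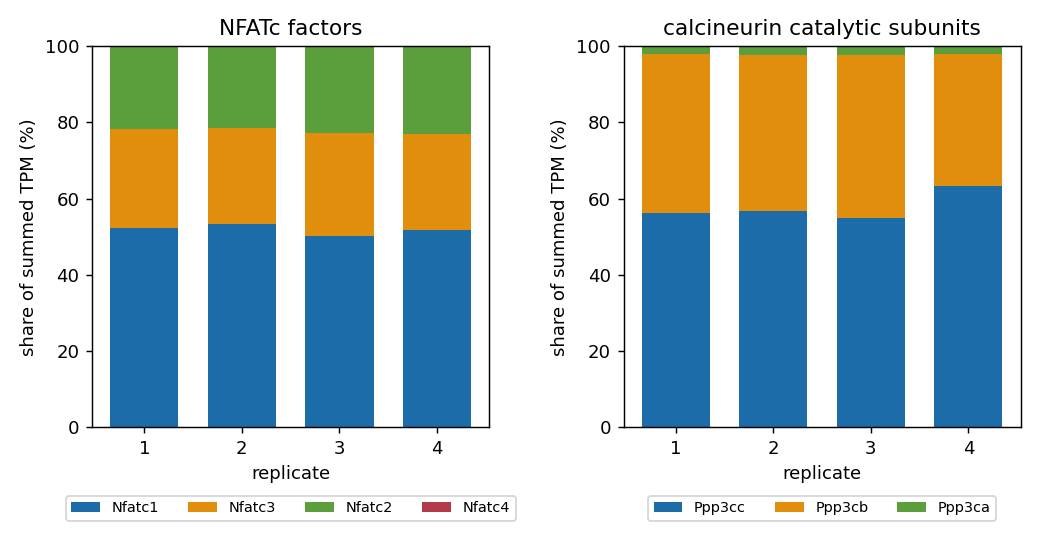
Share of each gene in the summed TPM of its family in every library, for the 4 NFATc factors (left) and the 3 calcineurin catalytic subunits (right), each bar summing to 100%. Nfatc1 holds 50.2% to 53.2% in each library and Ppp3cc 54.8% to 63.2%. The Nfatc4 share, 0.195% in the mean, is too thin to see.

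Nfat5 (ENSMUSG00000003847.16, chromosome 8 from 107293470 to 107379517, plus strand) was steady. It had 49.2, 50.1, 48.01 and 50.6 TPM in replicates 1 to 4. Its mean of 49.5 ± 1.12 TPM could not be told from that of Nfatc2, 49.0 ± 2.04 TPM. Nfat5 was the higher of the pair in 2 of 4 libraries. Nfat5 has the longest exonic sequence of the 10 genes, 18378 bases, so it took 9477 counts in replicate 1, more than Nfatc1 with 9293.

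The catalytic subunits of calcineurin were unequal. Ppp3cc, the gamma subunit, best known from testis, had 88.9, 90.2, 84.8 and 120 TPM in replicates 1 to 4, with a mean of 96.1 ± 16.4 TPM. Ppp3cb, the beta subunit, whose loss in mice impairs T-cell development, had 66.1, 65.4, 66.2 and 65.9 TPM, with a mean of 65.9 ± 0.344 TPM. The groups of values did not overlap, and Ppp3cc was 1.46 ± 0.249 times Ppp3cb. Replicate 4 alone carried the upper end: the ratio was 1.83 there and 1.28 to 1.38 in the others.

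Ppp3ca, the alpha subunit and the major form in brain, was much lower, with 3.30, 3.72, 3.80 and 4.15 TPM in replicates 1 to 4. Its mean was 3.74 ± 0.347 TPM from 108 to 363 counts per library, and Ppp3cb was 17.7 ± 1.70 times higher within libraries. It made up 2.26 ± 0.162% of the summed catalytic subunits, against 57.7 ± 3.76% for Ppp3cc and 40.04 ± 3.69% for Ppp3cb. The low place of Ppp3ca held under every length setting tried, at most 6.01% of the catalytic sum. The order of Ppp3cc and Ppp3cb did not: with the longest protein-coding transcript as length, Ppp3cc was 0.918 times Ppp3cb and 45.8% of the sum. The exonic length counted for Ppp3cb is 6018 bases and its longest protein-coding transcript 3831 bases, while Ppp3cc has 1948 and 1970 bases.

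Ppp3ca (ENSMUSG00000028161.17) lies on chromosome 3 from 136670124 to 136937727, plus strand. Ppp3cb (ENSMUSG00000021816.10) and Ppp3cc (ENSMUSG00000022092.10) both lie on the minus strand of chromosome 14, from 20499364 to 20546573 and from 70217898 to 70289449.

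The regulatory subunit Ppp3r1 had 208, 197, 208 and 198 TPM in replicates 1 to 4. Its mean was 203 ± 6.16 TPM, above the mean of 96.0% of protein-coding genes. The summed catalytic subunits reached 0.820 ± 0.0996 of the Ppp3r1 level, from 0.746 in replicate 3 to 0.963 in replicate 4. These are ratios of transcripts, not of protein. Of the Ppp3r1 exonic bases, 14.3% are shared on the same strand with Wdr92, and reads there were not counted, so its level is set somewhat low. Ppp3r1 (ENSMUSG00000033953.10) lies on chromosome 11 from 17159263 to 17200375, plus strand, and the testis form Ppp3r2 had 0 counts in all 4 libraries.

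The inhibitor Rcan1 (ENSMUSG00000022951.15, chromosome 16 from 92391953 to 92466146, minus strand) had 50.7, 48.6, 51.4 and 44.5 TPM in replicates 1 to 4, with a mean of 48.8 ± 3.10 TPM. Replicate 4 was the lowest. Rcan1 stood at 0.298 ± 0.0441 of the summed catalytic subunits, from 0.234 in replicate 4 to 0.332 in replicate 3. Its paralogue Rcan3 had 59.5 ± 4.14 TPM, and Rcan2 had 0 counts in every library. Rcan3 was 1.23 ± 0.164 times Rcan1.

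Rcan1 is transcribed from an upstream start and from an intronic start, and the intronic one is the classical NFAT-responsive start. The counts are summed over the gene and do not separate them. Both promoters are shown because of that difference. They are from RefSeq on GRCm38.p6, the same assembly as mm10, 5′ to 3′ on the minus strand, 250 bases before the start and 50 after, with starts 66.1 kb apart. The upstream window is chr16:92466120-92466419 and the intronic one chr16:92400029-92400328. Capitals mark the core NFAT motif GGAAA on either strand (TTTCC where it lies on the opposite strand).
Rcan1 upstream: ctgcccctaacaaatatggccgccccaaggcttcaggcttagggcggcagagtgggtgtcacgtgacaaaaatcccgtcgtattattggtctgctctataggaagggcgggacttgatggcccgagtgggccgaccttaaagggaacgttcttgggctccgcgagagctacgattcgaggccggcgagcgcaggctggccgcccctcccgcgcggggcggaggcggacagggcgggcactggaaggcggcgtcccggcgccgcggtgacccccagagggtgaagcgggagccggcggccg
Rcan1 intronic: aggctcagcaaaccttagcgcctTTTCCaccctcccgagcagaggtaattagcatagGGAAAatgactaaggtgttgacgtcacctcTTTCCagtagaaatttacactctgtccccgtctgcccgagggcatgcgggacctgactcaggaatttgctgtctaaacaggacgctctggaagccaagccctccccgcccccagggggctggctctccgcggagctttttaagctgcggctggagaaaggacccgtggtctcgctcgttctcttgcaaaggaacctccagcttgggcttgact

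The upstream window held 0 matches to GGAAA on either strand, and the intronic window held 3, beginning 227, 193 and 163 bases before the start. Across all 32851 promoter windows of this length, 61.3% held at least 1 match, 9.42% at least 3 and 2.65% at least 4. G and C made up 67.7% of the upstream window and 56.3% of the intronic one. The counts of matches were not adjusted for that. Promoter windows were found for 7 of the 10 genes. Ppp3cb had 4 matches, Nfatc4 3, Nfat5 2 and Ppp3r1 0. Nfatc2 had 3 and 1 at its pair of starts, and Nfatc3 1 and 0. A match describes these letters only, not binding.

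Ordered by mean TPM the genes ran Ppp3r1, Nfatc1, Ppp3cc, Ppp3cb, Nfatc3, Nfat5, Nfatc2, Rcan1, Ppp3ca and Nfatc4. Each was compared with the next in the same library on the log2(TPM + 1) scale. Ranges over the 4 libraries overlapped in 3 of the 9 neighbouring pairs. Nfatc1 exceeded Ppp3cc by 0.27 ± 0.27 log2 units and was the lower in replicate 4. Nfat5 exceeded Nfatc2 by 0.014 ± 0.087, and Nfatc2 exceeded Rcan1 by 0.0055 ± 0.082. Those 3 differences did not exceed their spread.

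The other 6 pairs kept 1 order in 4 of 4 libraries. The largest step lay between Rcan1 and Ppp3ca, 3.39 ± 0.19 log2 units, a 13.0-fold ratio of means. Ppp3ca exceeded Nfatc4 by 1.73 ± 0.23, with an 8.63-fold ratio of means. The 1 added before log2 narrows that step, which was 2.87 ± 0.47 with 0.1 added. Ppp3r1 exceeded Nfatc1 by 0.81 ± 0.048. The smallest steps were Ppp3cb over Nfatc3 by 0.20 ± 0.089 and Nfatc3 over Nfat5 by 0.21 ± 0.13. An exact permutation test that flips signs within libraries (two-sided, n = 4) gave these 6 pairs the smallest p that 4 libraries allow, 0.1875 after Benjamini-Hochberg adjustment over the 9 pairs. No pair could reach 0.05, and the order tested was itself set by the means of these same libraries. The order of close pairs rests on gene length, and with the longest protein-coding transcript Ppp3cb minus Nfatc3 was -0.12 log2 units.

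The spread of each gene between the libraries was then set against that of genes of like abundance, in a fit over 12156 genes. None of the 10 genes was called as varying beyond the trend (edgeR test of the quasi-dispersion, with adjusted p between 0.946 and 0.999). The same test, whose trend was fitted to these same genes, called 1 of all 12156 genes tested, 0.00823%. Calling so few, it does not show that a gene was steady. At an unadjusted p under 0.05 it found 1 of the 10, Ppp3cc, beside 4.9% of all genes. DESeq2 marked 0 of the 10 as dispersion outliers, beside 0.521% of the 21299 genes with a count. With counts scaled to the library total (CPM, TMM-normalised), the coefficient of variation had a median of 5.82% over the 10 genes and 7.91% over all genes tested.

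Ppp3cb was the steadiest, with a coefficient of variation of 1.07%, lower than all but 1.89% of the genes in its abundance decile. Nfat5 followed with 1.68%. Ppp3r1, Nfatc1 and Nfatc2 had 3.46%, 3.88% and 4.71%, each under the median of its own decile (5.15%). Rcan1, Nfatc3 and Ppp3ca had 6.93%, 7.34% and 9.20%, each above its decile median of 6.38%, 5.15% and 8.71%. Nfatc4 had 29.3%, near the 26.2% typical of genes with so few counts.

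**Figure D3:**
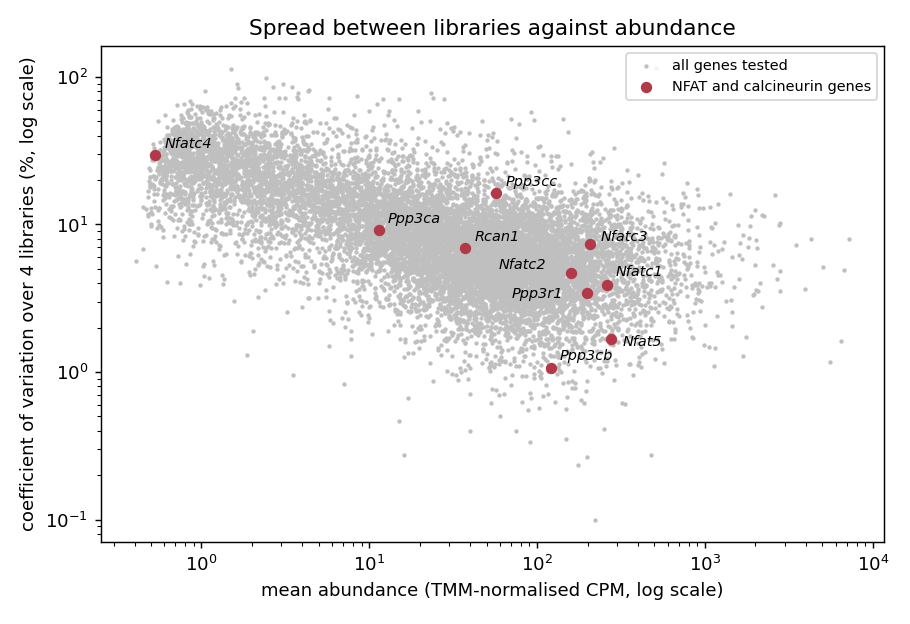
Coefficient of variation over the 4 libraries (%, log axis) against mean abundance (TMM-normalised CPM, log axis) for the 12156 genes tested (grey) and the 10 NFAT and calcineurin genes (red). Ppp3cb (1.07%) and Nfat5 (1.68%) lie at the lower edge of the cloud, and Ppp3cc (16.4%) near its upper edge.

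Ppp3cc was the exception in the family. In TMM-normalised CPM it had 52.6, 53.7, 51.0 and 71.0 in replicates 1 to 4, a coefficient of variation of 16.4% that exceeded 96.5% of genes in its decile. Replicate 4 was 1.35 times the mean of the others, and its counting interval, 115 to 126 TPM, lay above those of the other libraries, which reached at most 95.3 TPM. The edgeR quasi-dispersion test gave an unadjusted p of 0.0322 and an adjusted p of 0.946. Without replicate 4 the coefficient of variation was 2.59% and the unadjusted p 0.823. The spread therefore rests on 1 library. That library also had the largest chi-square values over all genes, but this measure grows with depth and replicate 3 was the shallowest. In TMM-normalised CPM, replicate 3 was highest for 4117 and lowest for 4162 of 12156 genes, beside 4041 and 3994 for replicate 4. Replicate 3, which is like replicate 4 in Xist and the Y-linked gene, had the lowest Ppp3cc value. A link of Ppp3cc to those genes was not tested. Of the markers of other cells, Acp5 was also highest in replicate 4, at 36.4, 37.3, 29.2 and 60.1 TPM in replicates 1 to 4. The osteoclast and mast cell list it leads summed to 30.02 to 60.9 TPM, 1 of its 6 genes reached 1 TPM in every library, and Dcstamp, Cpa3 and Mcpt4 were at 0. Klrd1 and Pecam1 were highest in replicate 4 as well. Klrd1 had 2.75, 2.91, 3.83 and 4.90 TPM in replicates 1 to 4, and its list of 4 CD8 and NK markers summed to 2.81 to 4.96 TPM, with Ncr1 and Klrb1c at 0. Pecam1 had 7.65, 8.18, 8.62 and 9.53 TPM, and its list of 6 endothelial and stromal markers summed to 8.35 to 10.2 TPM, with Cdh5 and Kdr at 0. Cd68 was highest in replicate 2. The part of these markers in the Ppp3cc result was not tested.

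In TMM-normalised CPM, 3 of the 10 genes were highest in replicate 4 (Ppp3cc, Ppp3ca and Nfat5), beside 33.2% of all genes tested, and 6 were lowest there, beside 32.9% of all genes tested. Those 6 were Nfatc1, Nfatc3, Nfatc4, Ppp3cb, Ppp3r1 and Rcan1. The count depends on the scaling, since in TPM Ppp3cb and Ppp3r1 were narrowly lowest in another library. The Ppp3cb values nearly tied, and Nfatc4 had few counts. By the rule for genes of like pattern, Nfatc4, which has the highest coefficient of variation, was closest to Mamdc4, Slc15a4, Mcts1, Ethe1 and Psmg3 by distance of centred log2(CPM + 1) over 4 libraries (0.0390 to 0.0596). With 54 Nfatc4 counts in all, that likeness is weak, and the 1 added before log2 flattens a gene of such low CPM. For Ppp3cc, looked at after its values were seen, the closest of 11059 protein-coding genes were Sdf4, Epb41l1, Crebrf, Epor and Eif4e3 (0.0194 to 0.0520). Sdf4, which encodes a calcium-binding protein of the Golgi lumen, had 313, 324, 308 and 429 CPM in replicates 1 to 4. Epor, at 0.542 to 1.17 CPM, is also flattened by the added 1. With 4 points per gene, close matches are easily found, and no shared control is implied.

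Genes downstream of NFAT had a wider spread in the median than the factors, a difference that was not tested. On the list of 16 cytokine and surface genes that NFAT is known to drive in T cells, 14 reached 1 TPM in all 4 libraries. The list median was 227 ± 69.5 TPM, while the mean of log2(TPM + 1), turned back to TPM, was 98.7 TPM. The highest were the inhibitory receptor gene Ctla4 (2801 ± 373 TPM), the interleukin 2 receptor gene Il2ra (1539 ± 63.5 TPM), Il21 (597 ± 21.5 TPM) and Il2 (501 ± 83.8 TPM, SD, n = 4). Below 1 TPM were Il4 with 18 counts in all and Ifng with 2. The list's median coefficient of variation was 16.1% over its 14 tested genes, beside 5.82% over the NFAT and calcineurin genes and 7.91% over all genes. It was not alike for all: Ctla4 had 12.6%, Il2ra 4.25%, Il21 3.84% and Il2 16.5%.

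No gene of that list passed the adjusted threshold, while 7 of the 14 had an unadjusted p under 0.05, beside 4.9% of all genes, and DESeq2 marked 2 as outliers, Tnfrsf9 and Nr4a1, beside 0.521% of all genes with a count. The costimulatory receptor gene Tnfrsf9 varied most, at 134, 159, 94.0 and 301 TPM in replicates 1 to 4. The edgeR quasi-dispersion test gave it an adjusted p of 0.289. The nuclear receptor gene Nr4a1, induced early after receptor signals, had 278, 307, 198 and 372 TPM (adjusted p = 0.546, edgeR). Replicate 4 was the highest library for 8 of the 14 genes and the lowest for 5, Il2 and Il21 among the latter, beside 33.2% and 32.9% of all genes tested. Replicate 3 was the lowest for 7 and the highest for 4, beside 4162 and 4117 of all 12156 genes tested. The list median was 206, 233, 150 and 317 TPM in replicates 1 to 4. So the high value of Ppp3cc in replicate 4 stood beside list genes that were higher there and others that were lower. Whether they are linked was not tested.

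**Figure D4:**
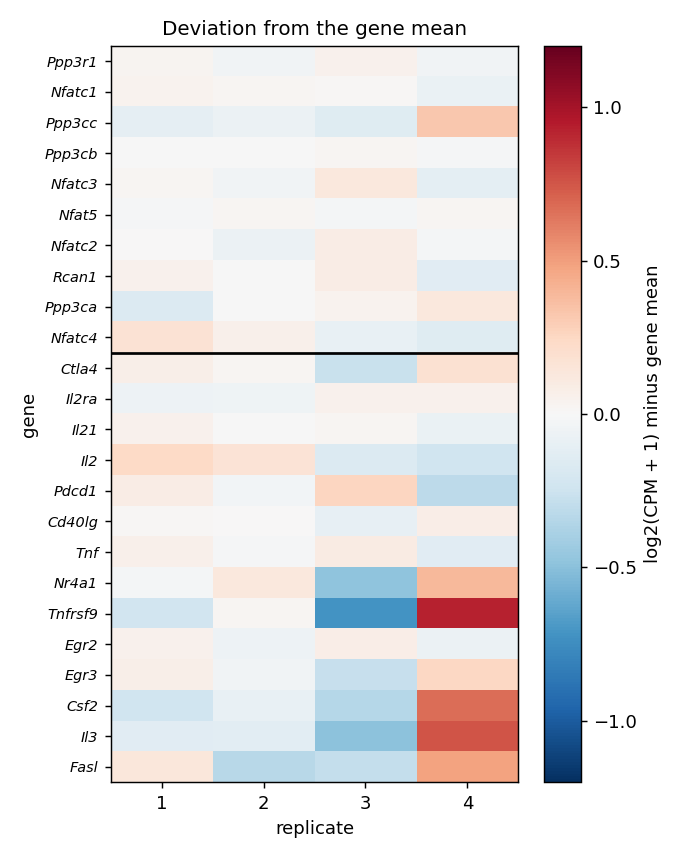
Deviation of each gene from its own mean in log2(CPM + 1), by replicate, for the 10 NFAT and calcineurin genes (above the line) and the 14 tested genes of the NFAT-dependent list (below it), each block ordered by mean TPM. The upper block is pale except Ppp3cc in replicate 4 (1.35 times the other libraries), while Tnfrsf9 is 2.31 times the others there.

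Upstream, the calcium machinery was present throughout. All 11 calcium entry genes reached 1 TPM in all 4 libraries, at a median of 26.8 ± 1.48 TPM. They were led by Saraf (157 ± 11.6 TPM), which dampens store-operated entry, the channel gene Orai1 (78.3 ± 6.92 TPM), the phospholipase gene Plcg1 (71.95 ± 4.82 TPM) and the calcium sensor gene Stim1 (40.9 ± 1.86 TPM). The lowest, Cracr2a, had 3.47 ± 0.288 TPM. None was called by edgeR or DESeq2, beside 0.00823% of all genes tested and 0.521% of all genes with a count. An unadjusted p under 0.05 (edgeR) was found for 0 of 11, beside 4.9% of all genes tested.

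Genes of calmodulin, the activator of calcineurin, were abundant beside those of the phosphatase. Calm2 had 648 ± 21.9 TPM and Calm3 416 ± 18.6 TPM (SD, n = 4). The targets of the drugs, Ppia (cyclophilin A, 779 ± 30.3 TPM) and Fkbp1a (FKBP12, 448 ± 35.3 TPM), were also high. Of the 14 calcineurin cofactors and anchors, 10 passed 1 TPM in every library. The inhibitor gene Cabin1 had 43.5 ± 0.661 TPM, whereas the anchor Akap5 (0.250 TPM) and the scaffold Homer2 (3 counts in all) were below 1 TPM. Akap1, the most variable of them, had 56.6 ± 8.34 TPM. Calm3, Cabin1 and Rcan3 were named after their values were seen.

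The kinases that rephosphorylate NFAT and the proteins that retain or carry it were all detected, 12 of 12 in every library, with a median of 118 ± 1.53 TPM. The importin gene Kpnb1 (537 ± 47.2 TPM) and the exportin gene Xpo1 (240 ± 21.1 TPM) were highest, then the kinase genes Gsk3a (192 ± 5.16 TPM) and Csnk1a1 (161 ± 3.75 TPM). The export factor gene Cse1l varied most, with 126 TPM in replicate 4 and 173 TPM in replicate 3. Its unadjusted p was 0.0336 and its adjusted p 0.951 (edgeR quasi-dispersion test).

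Other calcineurin substrates stood lower, at a list median of 10.4 ± 0.408 TPM. Of the 8 genes, 6 passed 1 TPM in every library. Crtc2 (66.7 ± 3.45 TPM) and Mef2d (45.0 ± 2.01 TPM) led their families, followed by Crtc3 (15.8 ± 0.848 TPM) and Mef2a (14.3 ± 0.941 TPM). Mef2c had 23 counts in all and Mef2b 1. Tfeb, a regulator of lysosome genes, had 6.44 ± 0.824 TPM.

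Transcription factors that act beside NFAT were led by the AP-1 gene Junb (1286 ± 133 TPM), then Irf4 (698 ± 10.8 TPM), Jund (542 ± 44.6 TPM) and Batf (389 ± 24.0 TPM). All but Fosb, which had 1.22 ± 0.407 TPM, reached 1 TPM in every library. On the list of 7 genes tied to NFAT without AP-1 in T-cell anergy, 6 passed 1 TPM in every library. Ikzf1, Dgka and Dgkz had 227 ± 2.86, 112 ± 19.6 and 109 ± 3.32 TPM, and the ubiquitin ligase gene Rnf128 had 17 counts in all. Cblb was the most variable of them, at 40.6, 43.3, 32.6 and 64.0 TPM in replicates 1 to 4 (edgeR quasi-dispersion test, adjusted p = 0.484). DESeq2 marked Cblb as a dispersion outlier, beside 0.521% of all genes with a count. Of the 6 tested genes of the list, 2, Cblb and Dgka, had an unadjusted p under 0.05 (edgeR), beside 4.9% of all genes tested.

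The osmotic targets of Nfat5 were unequal. Of 8 genes, 7 reached 1 TPM in all 4 libraries. The stress gene Ddit4 had 600 ± 119 TPM, the taurine transporter gene Slc6a6 146 ± 4.43 TPM, the amino acid transporter gene Slc38a2 138 ± 13.1 TPM and the chaperone gene Hspa4l 39.99 ± 1.02 TPM. The betaine transporter gene Slc6a12 had 0 counts in every library. The salt-responsive kinase gene Sgk1 had 3.97, 4.05, 6.08 and 3.54 TPM in replicates 1 to 4, highest in replicate 3.

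**Figure D5:**
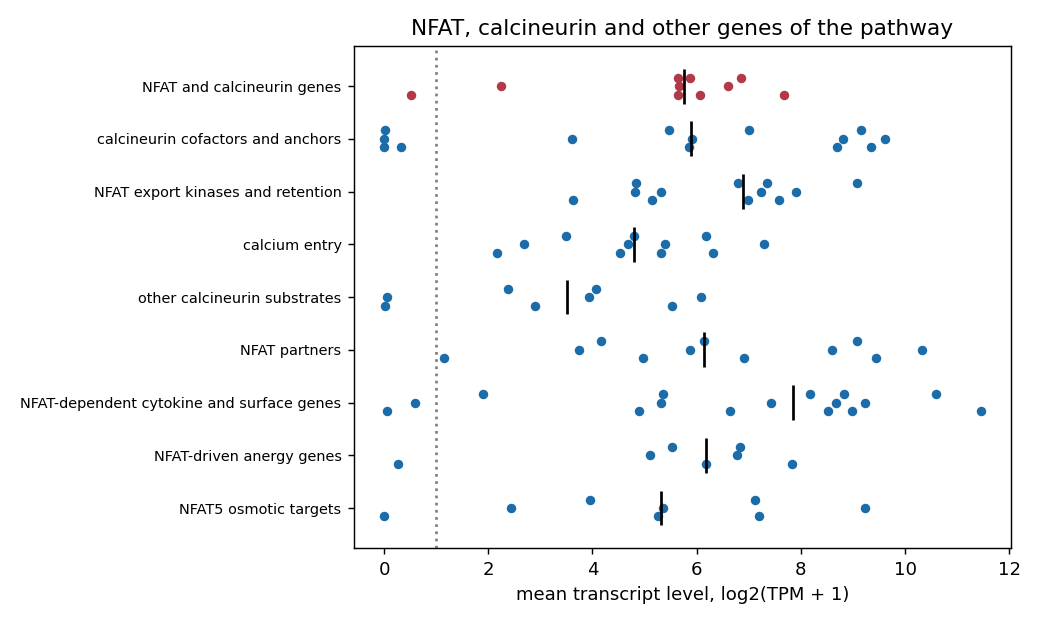
Mean transcript level over the 4 libraries, log2(TPM + 1), of each gene on 9 lists, 1 point per gene, with a bar at the median of the list's gene means and a dotted line at 1 TPM. The 10 NFAT and calcineurin genes (red) lie between 48.8 and 203 TPM except Ppp3ca and Nfatc4. The NFAT-dependent list reaches the highest levels, with Ctla4 at 2801 TPM.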

How the data were processed

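The deposited values are the authors' raw counts for each gene. Per the file headers, they came from featureCounts 1.4.6-p4, run on read pairs, reverse-stranded (option 2), over GENCODE mouse release 13 exons. The headers set neither the option for multi-mapping reads nor the one for overlapping genes, so by the default such reads were left out, and overlapping genes or near-identical copies may be set too low. The genome was mm10, per the labels. The labels call the assay total RNA, while the linked library protocol is named for poly(A) RNA. Symbols came from GENCODE release 21 (50376 of 50600 identifiers matched).

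TPM were computed here by dividing counts by the deposited exonic length. Spread was tested with edgeR 4.0.16 (intercept alone, TMM, filterByExpr): quasi-dispersion over its abundance trend, F upper tail, Benjamini-Hochberg over 12156 genes, threshold 0.05. DESeq2 1.42.0 served as an alternative. The test was also run on simulated counts, drawn at the trend with no further differences in spread between genes. These data have such differences, so that run does not give the power of the test here. Sampling noise did not cover the difference of any 2 libraries (mean chi-square over genes between 3.32 and 18.5), so none was treated as a repeat of another. That they are replicates rests on the labels. The genes and lists were chosen with earlier results of these data known. From each list the text names the 4 highest genes, those below 1 TPM, the most variable and any called by either tool, and it names other genes only where stated or as cell type markers. Some genes that this rule would name are not reported here.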

Additional observations from a re-analysis of the deposited data

Results flagged for a closer look

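Of 132 sets of 4 library values examined, 9 had 1 library far from the others by Dixon's gap at the 95% level, which chance alone gives in about 1 set in 20. Among the 10 genes only Ppp3cc was such a case, with 120 TPM in replicate 4. The summed catalytic subunits, 190.5 TPM in replicate 4, follow from it. The ratio of Nfatc3 to Nfatc2 was lowest in replicate 4, at 1.10. Of the pathway genes, Calm2 was low in replicate 1 (616 TPM), Lrrk2 low in replicate 2 (25.05 TPM), Fos high in replicate 2 (14.4 TPM) and Jund low in replicate 3 (476 TPM). The medians of the B cell list (0.0557 TPM, replicate 4) and the osteoclast and mast cell list (0.102 TPM, replicate 1) stood apart at levels near 0.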

How the results depend on the processing

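No paired analysis was possible because the 4 libraries form 1 group. With no gene length in the measure (CPM), the Nfatc1 share of NFATc was 41.8%, the Ppp3ca and Ppp3cc shares of the catalytic sum 6.01% and 30.0%, catalytic subunits over Ppp3r1 0.951 and Rcan1 over catalytic subunits 0.198. With the longest protein-coding transcript as length, a setting chosen after seeing the data, the 3 shares were 48.6%, 3.81% and 45.8%. Neighbouring genes changed order in CPM for Ppp3r1 and Nfatc1 (-0.38 log2), Ppp3cc and Ppp3cb (-1.08), Ppp3cb and Nfatc3 (-0.76) and Nfatc3 and Nfat5 (-0.43). They did so with the transcript length for Ppp3cc and Ppp3cb (-0.14), Ppp3cb and Nfatc3 (-0.12) and Nfat5 and Nfatc2 (-0.16). In each setting the length used is what differs. Leaving out 1 library moved Nfat5 minus Nfatc2 from -0.015 to 0.053 and Nfatc2 minus Rcan1 from -0.033 to 0.028, and changed the order of no other neighbours. No alternative of the spread test called any of the 10 genes it tested. Nfatc4 was below the filter, and so untested, with a mean count of at least 50 and without replicate 1. For Ppp3cc the adjusted p ran from 0.446 without a filter to 0.995 without replicate 4 (edgeR). Depth limits Nfatc4, with 4 to 25 counts per library. With the mean of log2(TPM + 1), turned back to TPM, in place of the median, 13 list levels moved beyond their SD and 2 did not. The NFAT-dependent list then stood at 98.7 TPM and the 10 genes at 37.7 TPM.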
